A study of Tetranychus urticae with 4 samples.

Results

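In the spider mite *Tetranychus urticae*, 3 genes were followed across all 4 arrays of the comparison of diapausing (DIA) with non-diapausing (NON-DIA) females, namely the lipase A genes *tetur09g06700* and *tetur17g03230* and the low-density lipoprotein receptor gene *tetur26g00570*. They are 3 of the 18217 genes on the array and were chosen by their deep falls in this same comparison, so their ratios are given as a description without a test. Their gene names are those used in the study, because the array files pair the identifiers with no name. Both groups were pools of whole adult females of the laboratory strain LS-VL that had developed from larvae at 17 °C and 80% RH with 8 h of light and 16 h of dark, and they differed in whether diapause had been entered. The study picked the DIA females by their orange colour and pooled more of them per replicate than NON-DIA females. Each of the 4 replicates was 1 two-colour array with DIA RNA in Cy5 and NON-DIA RNA in Cy3, and the dyes were never swapped, so dye and diapause cannot be told apart. As whole animals were used, fewer cells of a type and less RNA per cell cannot be told apart either.

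Lipases cut the ester bonds of stored lipids and release fatty acids, and in other animals lysosomal acid lipases act on triglycerides and sterol esters. Receptors of the low-density lipoprotein family sit in the plasma membrane and take up lipid-carrying particles by endocytosis. In many egg-laying animals, insects included, receptors of this family bring the yolk precursor vitellogenin into the growing oocyte. Females of *T. urticae* in diapause do not reproduce, and vitellogenin genes are used as markers of the reproducing state.

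The primers with which the study addressed *tetur26g00570* and *tetur17g03230* by qPCR are shown because they identify the transcripts by sequence. They are written 5′ to 3′ with the last 5 bases, the end from which the polymerase extends, in capitals.
*tetur26g00570* forward: tttcaacgatgctgtaaTTTGG
*tetur26g00570* reverse: ctcatctaatcctgggcTAACG
*tetur17g03230* forward: ttagacggactctcagaCGTCC
*tetur17g03230* reverse: tccattgacaaaacgTCCAG
The GC content was 36.4% and 50% for the receptor pair, and 54.5% and 45.0% for the lipase pair. The qPCR measurements were not analysed here.

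The arrays carried 10 probes for the 3 genes, 3 for each lipase gene and 4 for the receptor gene, and every probe was dimmer in DIA than in NON-DIA mites on each of the 4 arrays. All 40 NON-DIA readings (1 probe on 1 array) were well above background, whereas 21 of the 40 DIA readings were. Within a probe, the lowest NON-DIA signal was 29.4 to 96.7 times the highest DIA signal. Such a gap goes with the choice of genes by deep falls, and its share over all probes was not counted. A gene is called lower or higher here at a Benjamini-Hochberg adjusted p under 0.05 in limma and at least a 2-fold change, a rule that 1364 of the 14986 genes tested (9.10%) passed as lower and 1355 (9.04%) as higher in DIA mites. That all 3 genes passed as lower follows from how they were chosen.

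The spread over replicates lay almost entirely in the DIA channel. The SD of the log2 signal of a probe was 0.44 to 2.41 in DIA and 0.06 to 0.28 in NON-DIA mites, and it was larger in DIA for all 10 probes. In 34 of the 40 DIA readings the background-subtracted signal was above the brightest negative control spot of its array.

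**Figure D1:**
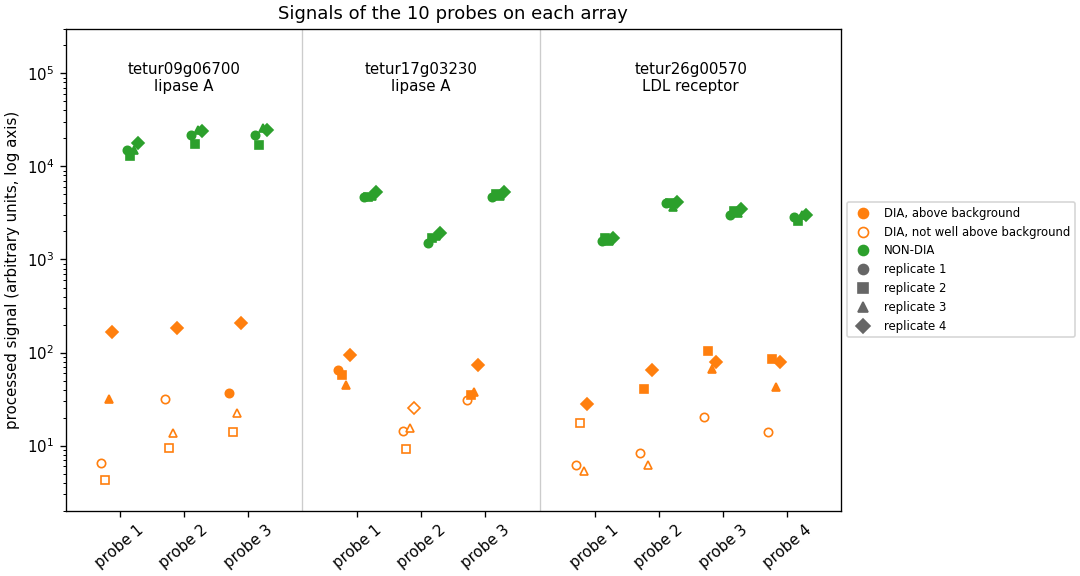
Processed signal (arbitrary units, log axis) of the 10 probes in DIA (orange, left of each pair) and NON-DIA mites (green, right), 1 marker per array, with open markers for DIA readings not well above background. Levels can be compared within a probe but not between probes, and the DIA readings of *tetur09g06700* on replicate 4 (166.5 to 208) sit above those of the other 3 replicates (4.24 to 36.9).

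Probe 1 of the lipase A gene *tetur09g06700* had processed signals of 6.56, 4.24, 31.4 and 166.5 in DIA mites on replicates 1 to 4, against 15187, 13067, 14863 and 17931 in NON-DIA mites. Over the other two probes, the DIA signals were 9.47 to 36.9 on replicates 1 to 3 and 182 and 208 on replicate 4, while the NON-DIA signals ranged from 17059 up to 26196. The 3 probes thus showed a residual DIA signal that was highest on replicate 4. The gene was well above background in DIA on 3 of the 4 arrays and in NON-DIA on 4, and on replicate 2 none of its probes was so in DIA. Averaged over the probes, the log2 ratios of DIA over NON-DIA were -9.93, -10.90, -9.95 and -6.90. The mean was -9.42 ± 1.74 (SD, n = 4), a 686-fold lower signal in DIA, and without replicate 4 it was -10.26. Only 5 of the 12 DIA readings behind this mean were well above background, and those 5 gave a 217-fold lower signal, so the size of the fall is not well fixed. By its mean *tetur09g06700* ranked 1 among the falls of all genes tested in these ratios. It ranked 7 after normexp background correction with loess, 10 after normexp with median centring and 3 with the median over probes. Its rank was 2 with the brightest probe, with probes of 1 gene, and without replicate 2 or replicate 4. By array, its rank was 5, 1, 2 and 2 on replicates 1 to 4. The 3 probes had means between -9.60 and -9.14.

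In the other lipase A gene, *tetur17g03230*, the brightest and the dimmest array of a DIA probe differed far less. Probe 1 had DIA signals of 64.8, 57.5, 44.9 and 93.5, against 4694, 4704, 4781 and 5377 in NON-DIA mites. Probe 3 gave 31.0, 34.6, 37.3 and 73.5 in DIA and 4725, 5016, 4860 and 5378 in NON-DIA mites. Again replicate 4 was the highest DIA reading, but only 2.08 to 2.73 times the lowest, compared with 15.0 to 39.3 times for *tetur09g06700*. Probe 2 was not well above background in DIA on any array, with 14.2, 9.31, 15.6 and 25.4 in DIA, against 1517, 1718, 1767 and 1940 in NON-DIA mites. Its signal was at least 14.3-fold lower in DIA, from the separate channels after another normalization (normexp with an offset of 50, loess and quantile) with the dim signals raised to the lowest one well above background. The gene's log2 ratios were -6.72, -7.02, -6.86 and -6.10, a mean of -6.68 ± 0.40 (SD, n = 4) or a 102-fold lower signal. This mean includes probe 2, and without it the log2 ratio was -6.60, while the 7 DIA readings well above background gave a 90.6-fold lower signal.

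The low-density lipoprotein receptor gene *tetur26g00570* had a pattern over the replicates unlike that of the lipase genes. Its probe 2 had DIA signals of 8.38, 40.2, 6.19 and 64.8, against 4053, 4094, 3712 and 4192 in NON-DIA mites. Its probe 3 had 20.4, 103, 66.6 and 78.7 in DIA and 3028, 3324, 3166 and 3451 in NON-DIA mites. The residual DIA signal was thus low on replicate 1 in all 4 probes, even lower on replicate 3 in probes 1 and 2, and highest on replicate 2 or 4. The gene was well above background in DIA on 3 arrays and in none of its probes on replicate 1. The log2 ratios were -7.96, -5.81, -7.28 and -5.66, with a mean of -6.68 ± 1.12 (SD, n = 4) and a 102-fold lower signal, or 50.6-fold over the 9 of 16 DIA readings well above background. The 4 probes spread more than those of the lipases, with means between -7.71 and -5.81. Probe 4 also lists the gene *tetur475g00020*, and the mean over the other probes was -6.90.

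The replicates with the higher receptor signal, 2 and 4, lie in 1 column of the slide, and replicates 1 and 3 in the other. Replicates 1 and 3 were the lower ones in every receptor probe, but by unequal gaps. In probes 1 and 2, no DIA reading on replicates 1 and 3 was well above background. In probe 3, the log2 ratio of replicate 3 (-5.57) lay next to that of replicate 4 (-5.45), and replicate 1 (-7.22) stood apart. In probe 4, replicate 3 (-6.13) lay between replicate 1 (-7.68) and replicate 4 (-5.23). Within the columns the receptor averaged -5.73 (replicates 2 and 4) and -7.62 (replicates 1 and 3). In the same order, *tetur09g06700* averaged -8.90 and -9.94, and *tetur17g03230* averaged -6.56 and -6.79. The spike-in controls, RNAs added in known ratios, were also offset on replicates 2 and 4. After scaling to them, the receptor ratios were -7.93, -5.07, -7.42 and -4.84, so that the columns remained apart. Those of *tetur17g03230* were then -6.69, -6.28, -6.99 and -5.28, also shallower on replicates 2 and 4. Those of *tetur09g06700* were -9.90, -10.16, -10.09 and -6.08, with replicate 4 apart. The part of the slide position in this spread was not tested. The median log2 ratio over all genes was 0.47 after this scaling and 0.10 without it.

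On each array *tetur09g06700* had the deepest ratio of the 3 genes. The order of the other two changed between arrays, with *tetur26g00570* deeper on replicates 1 and 3 and *tetur17g03230* deeper on replicates 2 and 4. Their means differed by much less than the spread over replicates, and over all genes they ranked 20 and 21 among the falls, just before the phosphatidylserine decarboxylase gene *tetur12g01500* (-6.67). These ranks depended on the processing. After normexp and loess *tetur26g00570* ranked 37 and *tetur17g03230* ranked 33, and with the brightest probe they ranked 38 and 26. Restricted to readings well above background in both channels, the means were -7.76 over 5 readings of *tetur09g06700*, -6.50 over 7 of *tetur17g03230* and -5.66 over 9 of *tetur26g00570*. These readings favour arrays on which DIA was bright, so the falls are shallower by construction.

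The 6 vitellogenin genes, which encode the yolk precursors, were all lower in DIA mites. Their mean log2 ratios lay between -9.22 for *tetur39g00700* and -7.74 for *tetur43g00020*, with adjusted p values of 0.000411 to 0.00131 (limma, n = 4). The median was -8.36, against 0.10 for all genes. By array, the median over the 6 genes was -9.91, -8.04, -9.22 and -5.44 on replicates 1 to 4, so that replicate 4 had the smallest fall, as it had in *tetur09g06700*. All 6 genes were also deeper on replicates 1 and 3 than on replicates 2 and 4, as the receptor gene was. By contrast, *tetur09g06700* was deepest on replicate 2. In *tetur39g00700*, for instance, the log2 ratios were -11.51, -9.41, -10.57 and -5.40. The remaining vitellogenin genes averaged -7.81 (*tetur516g00020*), -8.51 (*tetur39g00810*), -8.42 (*tetur43g00010*) and -8.31 (*tetur39g00720*). Except in *tetur39g00700*, at least 1 probe of each gene also lists another gene. The study named these genes among the deep falls in these samples, so their direction is not independent evidence of a fall. Of the 221 genes that fell by at least 3 on the log2 scale, 95 (43.0%) had their smallest fall on replicate 4 and 63 (28.5%) on replicate 2. On replicate 3 it was 38 (17.2%) and on replicate 1 it was 25 (11.3%). Over all 1364 lower genes, the smallest fall was more often on replicate 2 (34.7%) than on replicate 4 (26.2%).

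**Figure D2:**
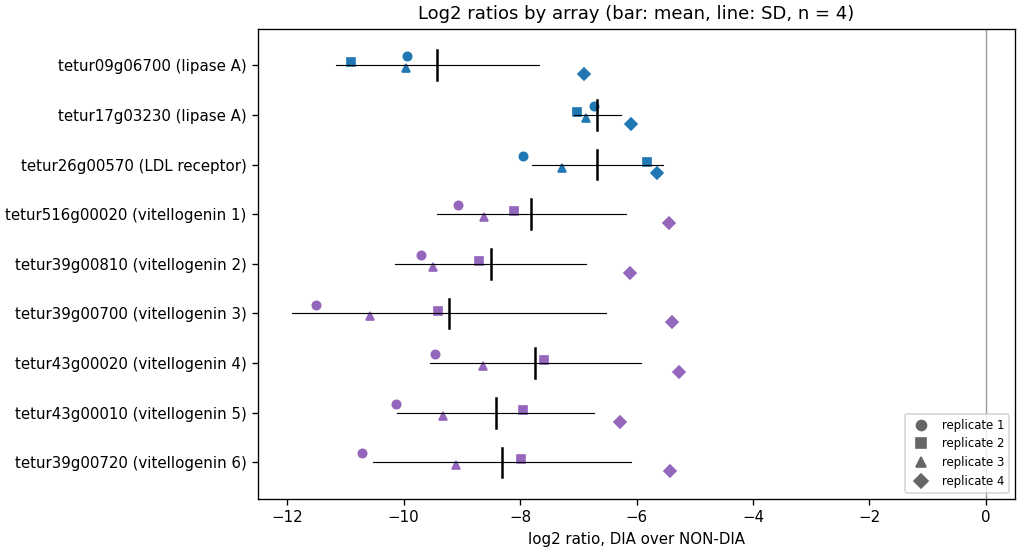
Log2 ratio of DIA over NON-DIA on each of the 4 arrays for the lipase and receptor genes (blue) and the 6 vitellogenin genes (purple), with the mean (bar) and SD (line). On replicate 4 (diamonds) the vitellogenin genes and *tetur09g06700* lie well to the right of their other arrays, whereas the receptor gene *tetur26g00570* has replicates 2 and 4 to the right.

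The genes with the most similar ratios were found by the root mean square difference (RMS, in log2 units) from each gene over the 4 arrays, leaving out genes that share a probe with it. For *tetur09g06700*, 4 of the 5 nearest genes were vitellogenin genes. These were *tetur39g00810* (RMS 1.19), *tetur39g00700* (1.35), *tetur43g00010* (1.54) and *tetur39g00720* (1.73). The fifth was the *midA* gene *tetur09g06670* (1.67), whose *Dictyostelium* counterpart is needed for mitochondrial complex I and which lies 3 array genes away on the same scaffold. For *tetur17g03230*, the glucose dehydrogenase gene *tetur03g09330* was nearest, with an RMS of 0.13 and log2 ratios of -6.63, -6.86, -6.87 and -6.29. It was followed by *tetur01g10190* (0.34), *tetur07g07500* (0.37), the serine protease gene *tetur19g00740* (0.43) and *tetur14g01460* (0.45). In *tetur07g07500* no probe was well above background in DIA on any array, and its signal was at least 6.69-fold lower in DIA. This bound was not tested, and the limma adjusted p of 3.98e-05 belongs to its mean log2 ratio of -6.64. For *tetur26g00570*, the nearest was *tetur02g11420* (0.47), which encodes a papain-like cysteine peptidase of the cathepsin B type. Next were *tetur19g00740* (0.55), *tetur10g02800* (0.56), *tetur22g01730* (0.61) and *tetur05g01470* (0.62). The serine protease gene was thus among the 5 nearest of both *tetur17g03230* and *tetur26g00570*. The RMS is taken on the ratios themselves, so the depth of a fall, by which the 3 genes were chosen, enters into which genes are nearest.

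The other lipid genes of the study did not move one way. Of 12 enzymes and lipid-binding proteins that it names, 2 were lower and 6 higher (against 9.10% and 9.04% of all genes) and 4 were not called in DIA mites, with a median log2 ratio of 0.91, against 0.10 for all genes. Several of the 12 were named in the study because they changed in these samples. The phosphatidylethanolamine-binding protein gene *tetur26g01230*, whose product binds phospholipid head groups, was 192-fold lower (log2 ratio -7.59 ± 0.49, SD, n = 4, limma adjusted p = 4.56e-05). None of its probes was well above background in DIA on more than 2 arrays. Its mean ranged from -7.95 to -4.41 over the alternative ways of processing, so the size of this fall is not well fixed. The gene for phosphatidylserine decarboxylase (*tetur12g01500*), the enzyme that makes phosphatidylethanolamine from phosphatidylserine, was 102-fold lower (-6.67 ± 0.81, SD, n = 4). These falls were of a depth like those of *tetur17g03230* and the receptor gene. The rises were modest in comparison. HMG-CoA reductase (*tetur05g02770*), which makes the isoprenoid precursor mevalonate, had the largest, with log2 ratios of 1.77, 1.97, 1.97 and 1.25 (limma adjusted p = 0.000504). Both diacylglycerol kinase genes, whose products turn diacylglycerol into phosphatidic acid, rose, with means of 1.39 (*tetur02g01690*) and 1.25 (*tetur40g00260*). The phospholipase C genes, which release diacylglycerol and an inositol phosphate signal, were divided. Of the 6 genes, *tetur05g05350* (1.06) and *tetur22g00790* (1.54) rose, and the other 4 did not reach the threshold, with means of -0.99, -0.95, -0.33 and 0.75. The rise of *tetur05g05350* was the smallest among the called genes, and the inactive phospholipase C-like gene *tetur22g00780* rose by 1.58. After normexp background correction 1 of the 6 rises was called.

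**Figure D3:**
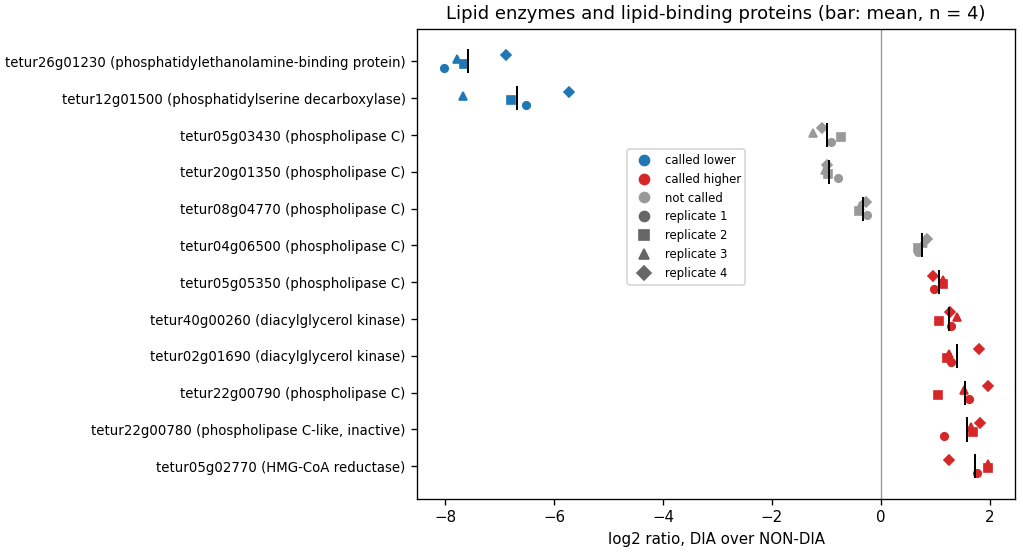
Log2 ratio of DIA over NON-DIA on each array for the 12 lipid enzymes and lipid-binding proteins, coloured by whether the gene was called lower, higher or not, with the mean as a bar. The 2 lower genes lie between -8.02 and -5.72 on all arrays, far from the 6 higher ones, whose means end at 1.74.

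The genes beside each of the 3 genes were then compared, using the locus number in the identifier as the order along the scaffold, since no coordinates of this gene set were used here. Of the 10 array genes on each side of *tetur09g06700* on scaffold 9, 17 were tested, and 5 of them (29.4%, against 9.10% of all genes) were lower and 0 higher in DIA mites (limma, with 0 higher also at an unadjusted p under 0.05). The median of the 17 genes was -0.72. The deepest was the *midA* gene *tetur09g06670*, with log2 ratios of -8.58, -8.49, -8.75 and -5.47, a mean of -7.82 ± 1.57 (SD, n = 4, limma adjusted p = 0.000455). It shares the small fall on replicate 4 with *tetur09g06700*. Of its 4 probes, 1 also lists another gene, and its mean ranged from -11.01 to -6.87 over the alternative ways of processing. Next to *tetur09g06700*, *tetur09g06690* had a mean of -1.40 and *tetur09g06680* one of -2.62, and *tetur09g06630* and *tetur09g06718* were at -1.18 and -1.29. After normexp and loess *tetur09g06630*, *tetur09g06690* and *tetur09g06718* were no longer called, and after spike-in scaling *tetur09g06630* and *tetur09g06718* were not. The value of *tetur09g06690* rests on 1 probe, well above background in DIA on 1 array, and without a detection filter it was not called (-0.49).

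Around *tetur17g03230* on scaffold 17, all 20 flanking genes were tested, and 3 (15.0%, against 9.10% of all genes) were lower and 2 (against 9.04%) higher. The direct neighbour *tetur17g03220* was 10.3-fold lower, with log2 ratios of -3.79, -3.17, -3.03 and -3.49. The others were *tetur17g03260* (-1.34) and *tetur17g03290* (-1.12), while *tetur17g03150* (2.24) and *tetur17g03250* (1.23) were higher. Neither rise was called after normexp and loess, at 0.38 and 0.19, nor was that of *tetur17g03150* without a detection filter (0.69). After spike-in scaling *tetur17g03260* (-0.97) and *tetur17g03290* (-0.76) were not called. The median of the 20 genes was -0.24. The products of these flanking genes are not annotated in the sources used here.

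Around the receptor gene *tetur26g00570* on scaffold 26, 11 of the 18 genes tested were lower (61.1%, against 9.10% of all genes) and 0 higher (limma, with 2 higher at an unadjusted p under 0.05). All 11 were lower on each of the 4 arrays, with mean log2 ratios between -5.64 for *tetur26g00510* and -3.80 for *tetur26g00470* and adjusted p values of at most 0.000426 (limma, n = 4). The neighbours on either side, *tetur26g00560* and *tetur26g00580*, were 19.1-fold and 29.3-fold lower. On replicates 1 to 4, *tetur26g00560* had log2 ratios of -4.60, -3.75, -4.08 and -4.59. The others were *tetur26g00480* (-4.67), *tetur26g00490* (-4.74), *tetur26g00540* (-4.72), *tetur26g00550* (-4.06), *tetur26g00600* (-5.03), *tetur26g00610* (-4.15) and *tetur26g00620* (-4.24). In between, *tetur26g00530* (0.45 ± 1.23, SD, n = 4) and *tetur26g00590* (-0.98 ± 0.83) were not called.

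The falls stopped abruptly on the far side. From *tetur26g00630* (0.01) to *tetur26g00670* (0.56) none of the last 5 genes of the window was called, although 2 had an unadjusted p under 0.05 in limma. A wider window of 40 array genes on each side, chosen after these values had been seen, placed the other end at *tetur26g00420*. The single probe of that gene was not well above background in DIA on any array, so that its signal was at least 1.27-fold lower. This bound was not tested, and the limma adjusted p of 0.00114 belongs to its mean log2 ratio of -1.57. The next gene, *tetur26g00430*, averaged -3.57. From *tetur26g00420* to *tetur26g00620*, 15 of the 18 genes tested beside the receptor gene were lower (against 9.10% of all genes). All 15 were lower on each of the 4 arrays, and the other 3 genes were not called. The ends of this stretch were set where the run of called falls ended, so the counts inside and just outside it follow in part from that choice. The 24 genes tested before this stretch contained 0 lower ones (limma, 4 at an unadjusted p under 0.05 and less than 2-fold), and the 29 tested after it contained 4. Of the 16 genes of scaffold 26 that fell by at least 3 on the log2 scale, 14 lay in this stretch, the receptor gene included. The median over the 15 genes was -4.60, -3.75, -4.20 and -4.41 on replicates 1 to 4. Between its lowest and highest array the receptor gene spanned 2.30, and these genes 0.56 to 2.66, the widest being *tetur26g00510*.

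**Figure D4:**
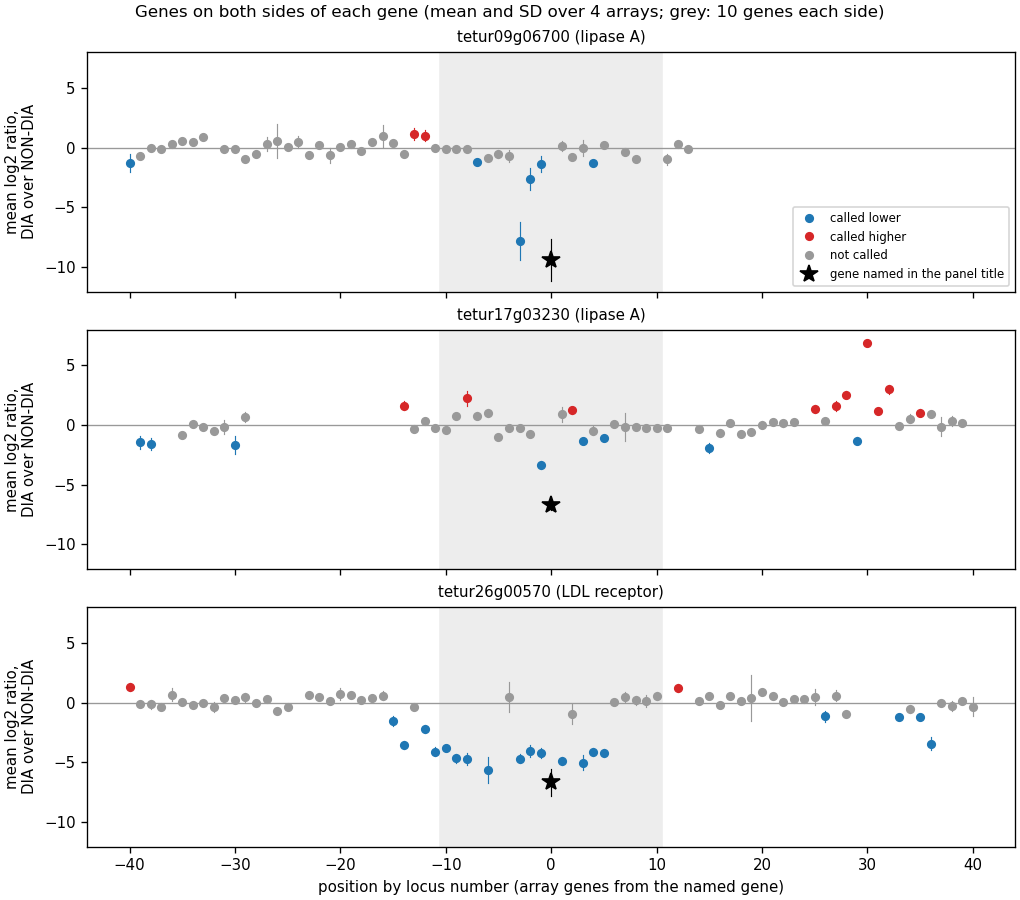
Mean log2 ratio of DIA over NON-DIA (points, with the SD over 4 arrays as lines) of the array genes tested within 40 positions on each side of the 3 genes (stars), ordered by locus number, with 10 positions on each side in grey. Around *tetur26g00570* the called falls form a stretch from position -15 to position 5, while those around the lipase genes are few and mostly shallow.

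Several genes of the stretch share probes, so their values are not independent. Of the 15 lower genes, 8 have at least 1 probe that also lists another gene, and the single probe of *tetur26g00540* is such a probe. The remaining 7 have only probes that list 1 gene. Among the 11 genes tested within 10 positions whose probes all list 1 gene, 4 were lower (36.4%), namely *tetur26g00490*, *tetur26g00510*, *tetur26g00550* and *tetur26g00610*. Whether probes that list 1 gene also bind transcripts of a similar neighbour was not tested. The array also carries 2 genes of scaffold 475 that share probes with this stretch. The gene *tetur475g00020*, which shares a probe with the receptor gene, had log2 ratios of -7.91, -6.49, -7.53 and -5.98. The gene *tetur475g00010*, which shares a probe with *tetur26g00600*, had -6.29, -5.20, -6.40 and -5.31 (limma adjusted p = 0.000107).

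For reference, the number of lower genes among the 20 flanking array genes was counted for each of the 16487 genes with 10 array genes on both sides. The median count was 1. A count of at least 11, as around *tetur26g00570*, was found for 30 genes (0.182%), 11 of them on scaffold 26. The highest count was 16, around *tetur26g00520*, which lies 5 positions from the receptor gene. A count of at least 5, as around *tetur09g06700*, was found for 5.13% of the genes, and a count of at least 3, as around *tetur17g03230*, for 20.2%. Neighbouring windows overlap and share genes, so these shares are a description.

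**Figure D5:**
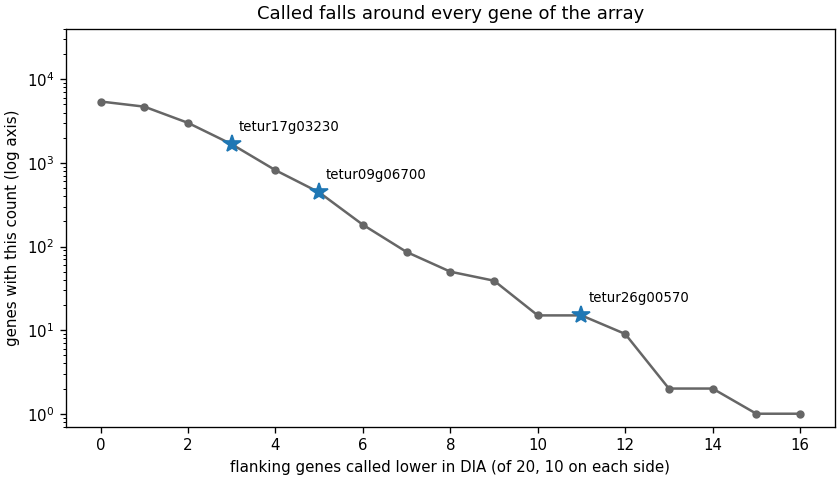
Number of genes (log axis) by how many of their 20 flanking array genes were called lower in DIA, with the lipase and receptor genes as stars. The receptor gene *tetur26g00570*, with 11, lies in the thin right end of the distribution, and the lipase genes, with 5 and 3, lie further left.

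The reference genes of the study changed by less than 2-fold. The mean log2 ratios were -0.31 for actin (*tetur09g05350*), 0.40 for ubiquitin C (*tetur03g06910*) and 0.04 for ribosomal protein 49 (*tetur18g03590*), and none was called (limma, with 2 at an unadjusted p under 0.05). Actin (limma adjusted p = 0.0105) and ubiquitin C (limma adjusted p = 0.00302) missed a call only by the 2-fold threshold. After spike-in scaling actin was at 0.054, ubiquitin C at 0.76 and ribosomal protein 49 at 0.40. Per array, 69.2% to 72.1% of the gene spots were well above background in DIA and 67.2% to 69.5% in NON-DIA mites. The 4 arrays lie on 1 slide.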

How the data were processed

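Diapausing and non-diapausing females of 4 replicates were compared on 4 two-colour arrays. The members and gene lists were chosen with earlier results of these data known. The intensity values as deposited are, per spot and channel, median signals and the authors' processed signals, which their Agilent Feature Extraction software (10.7.1.1 per the file headers) subtracted for background and normalized within the array by dye. The log10 values as deposited are that software's ratios of Cy5 over Cy3, converted here to log2. A second table deposited by the authors holds log2 ratios of the same signals, which differ only where the software wrote exactly 0. Its columns have medians near 0, and it was used as an alternative.

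Spots of controls were left out, as were 49 to 114 outlier spots per array, and no gene spot was saturated. A probe entered when well above background in 1 channel on at least 2 arrays, and a gene is the mean over its probes, a probe that lists several genes counting for each. This left 14986 of 18217 genes. The mean ratio over 4 arrays was tested against 0 in limma (version 3.58.1, functions lmFit and eBayes), with Benjamini-Hochberg adjustment over all genes. The software used was R (4.3.3), its package data.table (1.17.8), Python (3.11.15), pandas (2.3.3), numpy (2.4.6) and matplotlib (3.10.9). Tested on simulated data with 200 changed genes among 14986, the fit recovered 190 with 0 false calls. The simulation had independent normal noise, fewer changed genes than were called here and no floor of dim signals. It therefore does not give the error rate of the calls in these data. The channels of an array deviated together only weakly (Pearson's r across genes 0.0558 to 0.196). The number of arrays limits the precision, and p values measure the spread between these pools.

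Named genes are the 3 members, the list genes (all of a list of up to 6, otherwise the called genes with the largest and smallest ratio), the flanking genes called and the 5 nearest genes of each member. Other genes given by name were chosen after their values were seen. The alternatives were another background correction (normexp, offset 50, with loess or median centring), the deposited table, spike-in scaling, no detection filter, detection on all 4 arrays or in both channels, the median or brightest probe, probes of 1 gene, each replicate left out, slide row, no moderation, an intensity trend, a test beyond 2-fold, and separate channels without pairing. Slide column, within-column and within-row means, readings above background in both channels, and the other windows of flanking genes were added after the data had been seen. Lists by gene annotation were not run, because the reference table does not pair these identifiers with names.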

Additional observations from a re-analysis of the deposited data

Results flagged for a closer look

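In 75 sets of 4 values (log2 ratios of the genes named, and log2 signals of the 10 probes in each channel), 3 had a replicate whose gap to the nearest other replicate exceeded Dixon's critical share of the range for 4 values, where chance gives about 1 in 20. On scaffold 9, the *midA* gene *tetur09g06670* near *tetur09g06700* had a log2 ratio of -5.47 on replicate 4, against -8.75 to -8.49 on the other replicates. The diacylglycerol kinase gene *tetur02g01690* had 1.81 on replicate 4, against 1.22 to 1.30. Probe 1 of *tetur17g03230* had a NON-DIA signal of 5377 on replicate 4, against 4694 to 4781. All 3 were on replicate 4.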

How the results depend on the processing

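The 3 genes kept their direction under the alternatives of scaling, detection filter, probe choice, slide position and left-out replicate. Normexp background correction, whose offset shrinks the ratios of dim spots, gave -7.15 with loess and -6.83 with median centring for *tetur09g06700*, -4.61 and -4.31 for *tetur17g03230*, and -4.45 and -4.14 for *tetur26g00570*. Leaving out 1 replicate gave -10.26 to -8.93, -6.87 to -6.56 and -7.02 to -6.25 for the same genes.
Over all genes, the lower and higher calls (1364 and 1355) became 804 and 337 with normexp and loess, 604 and 644 with normexp and median centring, and 712 and 459 in a test beyond 2-fold. Scaling to the spike-in controls gave 913 lower and 2787 higher genes, and detection in both channels 1170 and 903. Without the pairing of the channels of an array (no replicate block), 1361 and 1351 genes were called. Leaving out 1 replicate gave 1330 to 1391 lower and 1273 to 1381 higher genes.
The 6 vitellogenin genes were called lower under each alternative. Of the lipid enzymes, 1 was called higher with either form of normexp, and leaving out 1 replicate gave 2 to 4 lower ones, the 4 without replicate 1.
Around *tetur26g00570*, 8 to 12 genes were lower under the alternatives, the 8 among genes that share no probe outside the window, and 4 of 11 where all probes list 1 gene. Around *tetur09g06700*, 2 were lower with normexp and loess, 2 with normexp and median centring, and 3 with spike-in scaling. Around *tetur17g03230*, 1 was lower with normexp and median centring and 1 with spike-in scaling. There, 0 were higher with either form of normexp or with detection in both channels, 1 without a detection filter, 6 with spike-in scaling, and 2 to 3 when 1 replicate was left out.
Of the named genes, *tetur08g04770* changed sign with spike-in scaling (0.031), as did actin (*tetur09g05350*, 0.054). The ribosomal protein 49 gene *tetur18g03590* was at -0.0044 with the median over probes and at -0.0050 to 0.079 when 1 replicate was left out, the lowest without replicate 4. Dim DIA signals limit how deep a fall can be measured. The causes of these shifts were not tested, and the normexp offset was not varied.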
